A study of Bos indicus and Bos taurus with 17 samples.

Results

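The genes described here encode the translation initiation factors (eIF) and translation elongation factors (eEF) of cattle, together with PABPC1 and TPT1, in cells isolated from milk. Members were taken by name, as every gene whose symbol begins with EIF or EEF followed by a digit, plus PABPC1 and TPT1, and 55 of the 21631 distinct gene names in the expression table met this rule. RNA had been sequenced from milk epithelial cells of 2 breeds, Kashmiri cattle, a local breed, and Jersey cattle, on days 15, 90 and 250 of lactation (called D15, D90 and D250), which gave 6 groups of breed and day. The labels list 17 samples, 3 in each group except for 2 in Jersey cattle at D90. The table holds 1 value per gene and group, in FPKM (sequenced fragments scaled by transcript length and library size), so the spread between cows could not be measured, no difference below was tested, and the depth behind each value is unknown. According to the labels D15 samples were taken in March, D90 samples in July and D250 samples in December, and cows were in lactation 2 or 3, so day in milk and season cannot be told apart. The study's methods state that 3 cows of each breed were sampled on each day and that cells were captured from milk with an antibody to cytokeratin 18. Lactation numbers in the labels differ between days, so which samples share a cow is not known here.

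Protein synthesis begins when eIF2 brings the initiator transfer RNA to the small ribosomal subunit, which is held open by eIF1, eIF1A and eIF3, while eIF4F binds the cap of the mRNA and unwinds its leader. After the start codon has been found and eIF5 and eIF5B have let the subunits join, eEF1 delivers each aminoacyl-tRNA and eEF2 moves the ribosome along. A lactating mammary cell makes milk proteins in bulk, and the control points best known there are mTOR, which releases eIF4E from its binding proteins, and the kinases that phosphorylate eIF2.

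Of the 55 genes, 52 reached 1 FPKM in at least 1 group and 50 did so in all 6. EIF1AY and EIF4E1B were listed at 0 throughout, and EIF5A2 stayed between 0.323 and 0.750 FPKM. In every group 11 genes were above 100 FPKM, while 7 were under 10 FPKM in every group. Several factors were not matched by name in the table and are not analysed here, among them EEF1A1, EEF1D, EIF2S3, EIF3C, EIF3F, EIF5A and EIF6, so no complex is described by its full set of subunits. Mammalian genomes hold processed copies of several of these genes, such as TPT1, EIF1, EEF1G, EEF1B2, EIF1AX and PABPC1, and the study discarded reads that mapped to more than 1 place, so the levels of these genes are uncertain.

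**Figure D1:**
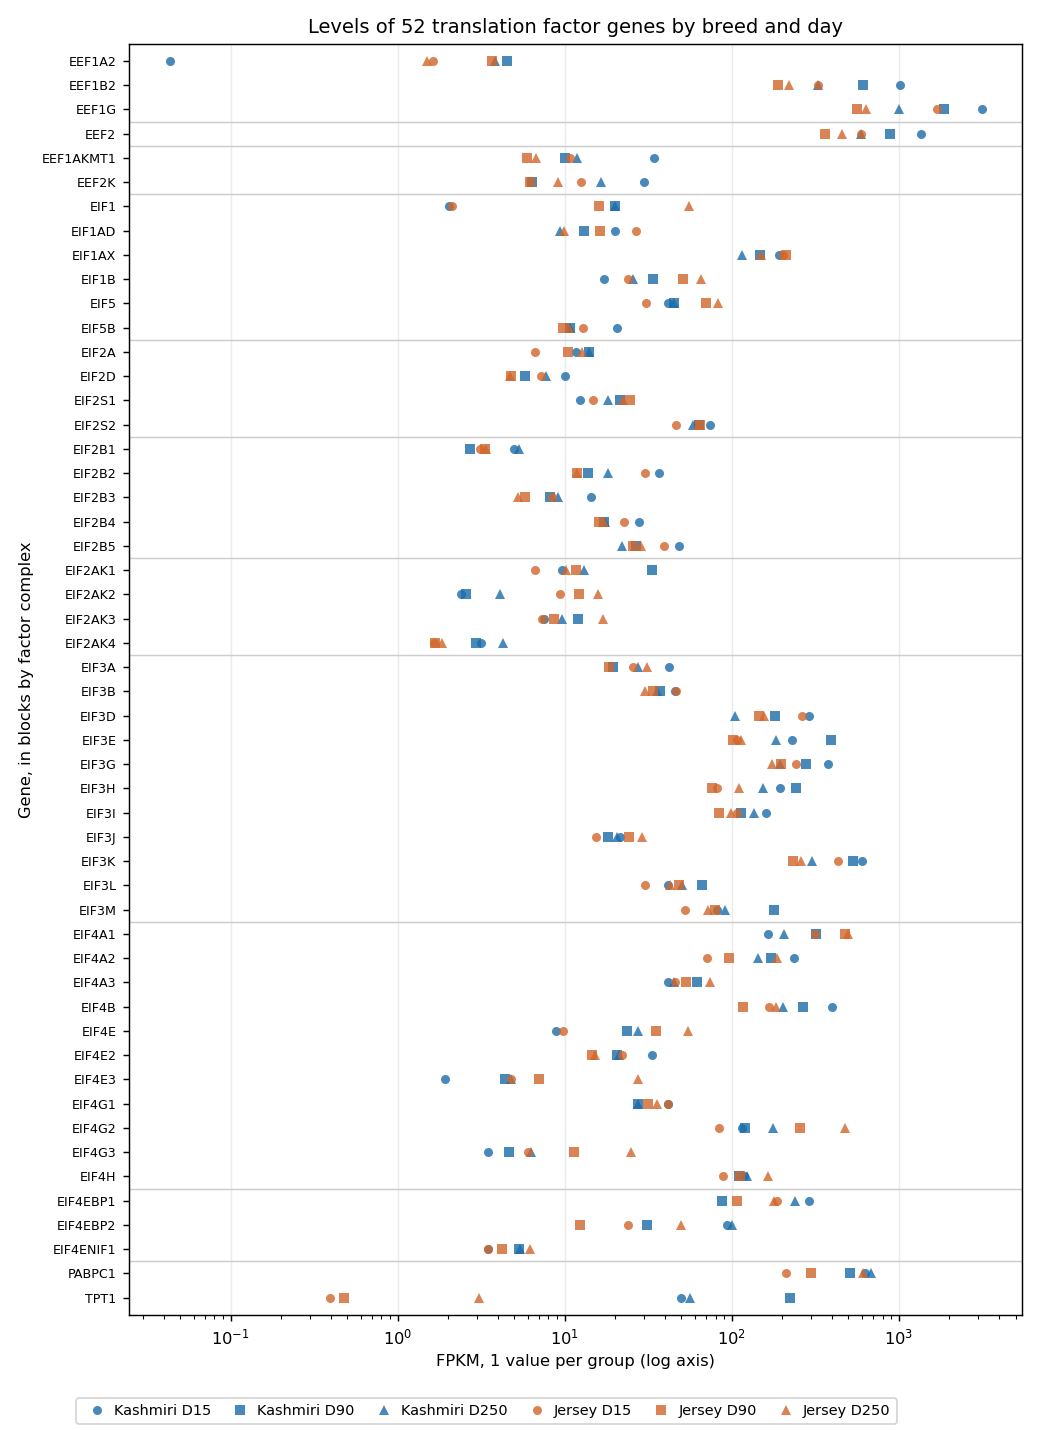
FPKM of the 52 genes that reached 1 FPKM in any group (log axis), with 1 point per group, colour for the breed and shape for the day, in blocks by factor complex. EEF1G, EEF2 and EEF1B2 lie furthest right, and TPT1 shows the widest gap between breeds, with Kashmiri points from 49.4 to 223 FPKM and Jersey points from 0.394 to 3.05 FPKM.

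The 55 genes made up about 1 percent of the summed FPKM in Kashmiri cows and less in Jersey cows. Their share was 1.02%, 0.957% and 1.08% at D15, D90 and D250 in Kashmiri cows, and 0.763%, 0.680% and 0.624% in Jersey cows, so the Kashmiri groups were above the Jersey groups with no overlap. Ribosomal protein genes were counted where listed under a single name and at 1 FPKM or more in some group, which gave 43. Entries that join several names were left out, so these 43 are not the full set. They took 24.5%, 22.9% and 15.5% of the sum in Kashmiri cows and 15.2%, 6.92% and 5.44% in Jersey cows. The share of these ribosomal protein genes was thus lower at D250 than at D15 in both breeds, while the share of the factors hardly differed between these days in Kashmiri cows. For each 100 FPKM of these ribosomal protein transcripts there were 4.17 FPKM of factor transcripts in Kashmiri cows at D15 and 11.5 FPKM in Jersey cows at D250, the lowest and the highest of the 6 groups. EEF1G, EEF1B2 and EEF2 alone supplied 52.8%, 42.3% and 33.5% of the factor transcripts by day in Kashmiri cows and 44.8%, 25.4% and 23.3% in Jersey cows.

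**Figure D2:**
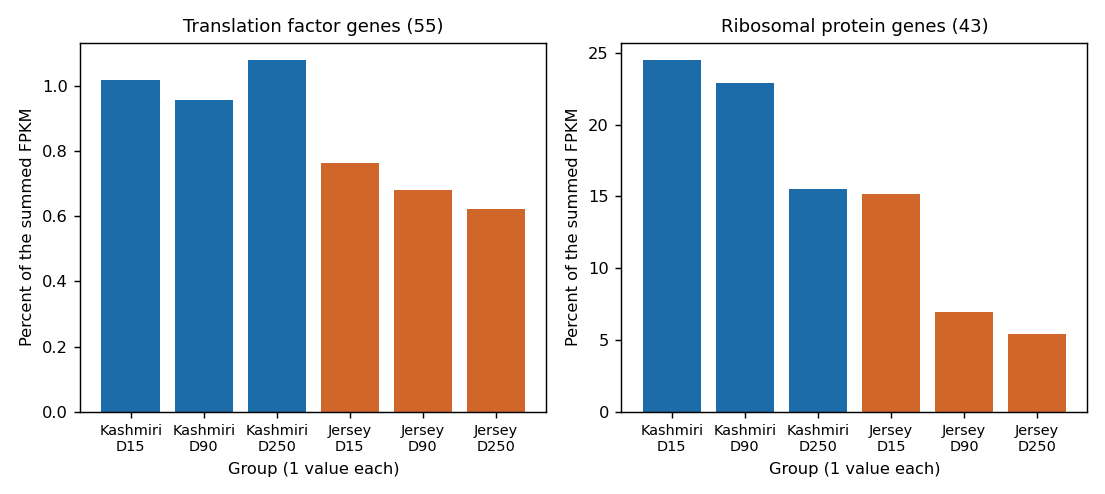
Percent of the summed FPKM taken by the 55 translation factor genes (left) and by the 43 ribosomal protein genes listed under a single name (right), 1 bar per group with no replicates and so no error bars. Factor shares lie between 0.624% and 1.08%, with all 3 Jersey bars under the Kashmiri bars, and ribosomal protein shares run from 5.44% to 24.5%.

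The summed FPKM itself differed between groups, from 533249 in Kashmiri cows at D250 to 1023152 in Kashmiri cows at D15. Ratios are therefore given on the deposited scale as log2 ratios with 1 FPKM added to both levels. Each was recomputed after rescaling to the summed FPKM without the milk protein genes. It was also recomputed after rescaling to the upper quartile and after centring on the median of all genes. Milk protein genes held only 1817 to 13031 FPKM of the group sums, so leaving them out changed the sums little. The study itself lists casein genes at far higher levels. Rescaling to the sum took the median over all genes from -0.04 to 0.77 for Kashmiri D250 over D15 and from -0.10 to -0.75 for Jersey over Kashmiri at D250, and by less in the other 7 comparisons. A gene is called past the limit where the log2 ratio was at least 1 in size, a 2-fold difference, and the level was at least 1 FPKM in either group. None of the factor genes called on the deposited scale turned its direction under any of the 3 rescalings, in any of the 9 comparisons, though some then fell short of the limit. Of the 93 such calls over the 9 comparisons, 64 stayed past the limit after rescaling to the sum, 79 with the upper quartile, 86 after centring and 62 under all 3.

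The elongation factors held the highest levels. EEF1G, which encodes the gamma subunit of the complex that recharges eEF1A with GTP, was at 3142, 1855 and 1009 FPKM on D15, D90 and D250 in Kashmiri cows and at 1685, 563 and 636 FPKM in Jersey cows. EEF1B2, the exchange subunit that does the recharging, was at 1013, 613 and 327 FPKM in Kashmiri cows and at 327, 188 and 219.7 FPKM in Jersey cows. EEF2, the translocation factor, was at 1366, 886 and 598 FPKM in Kashmiri cows and at 595, 363 and 456 FPKM in Jersey cows. All 3 genes were thus highest in Kashmiri cows at D15, lower in Jersey than in Kashmiri cows on each day, and lowest in Jersey cows at D90, or at D250 once rescaled to the sum. At D250 over D15 the log2 ratio was -1.64 for EEF1G, -1.63 for EEF1B2 and -1.19 for EEF2 in Kashmiri cows, against -1.40, -0.57 and -0.38 in Jersey cows. Rescaled to the sum, they were -0.67, -0.67 and -0.23 in Kashmiri and -1.64, -0.81 and -0.62 in Jersey cows, so the Kashmiri values fell short of the limit and the order of the breeds turned. The ratio of EEF1G to EEF1B2 lay between 2.89 and 3.10 in 5 groups and was 5.15 in Jersey cows at D15.

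EEF1A2, the form of eEF1A known from muscle and neurons, was low, at 0.0432, 4.49 and 3.83 FPKM in Kashmiri cows and at 1.62, 3.65 and 1.50 FPKM in Jersey cows. Its log2 ratio at D90 over D15 in Kashmiri cows was 2.40, a value set by the very low D15 level. EEF2K, the kinase that phosphorylates and slows eEF2, was at 29.9, 6.41 and 16.6 FPKM in Kashmiri cows and at 12.5, 6.19 and 9.07 FPKM in Jersey cows. In both breeds the D90 level was the lowest of the 3 days, and the log2 ratio of D90 over D15 was -2.06 in Kashmiri and -0.91 in Jersey cows. There were 138 FPKM of EEF2 for each FPKM of EEF2K in Kashmiri cows at D90, against 36.0 to 58.7 in the other 5 groups. EEF1AKMT1, a methyltransferase of eEF1A, was at 34.2 FPKM in Kashmiri cows at D15 and at 5.93 to 11.9 FPKM in the other 5 groups. An entry spelled eef1d, in lower case and outside the naming rule, was at 4555, 719 and 650.1 FPKM in Kashmiri cows and at 1581, 205 and 415 FPKM in Jersey cows, above EEF1G in Kashmiri cows at D15 only. It too was highest in Kashmiri cows at D15 and lowest in Jersey cows at D90.

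TPT1, whose protein binds the eEF1 exchange complex, differed between breeds more than any other factor gene. It was at 49.4, 223 and 56.6 FPKM in Kashmiri cows and at 0.394, 0.478 and 3.05 FPKM in Jersey cows. Kashmiri groups peaked at D90 and no Jersey group overlapped them. Its breed ratio on the log2 scale, Jersey over Kashmiri, came to -5.18, -7.25 and -3.83 by day. Reads shared with processed copies of TPT1 were discarded, and their part in the result was not tested.

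Among the factors that find the start codon, EIF1 stood out. EIF1, which guards the accuracy of start codon choice, was at 2.04, 20.1 and 19.9 FPKM in Kashmiri cows and at 2.13, 16.1 and 55.6 FPKM in Jersey cows. Both D15 groups lay far under all later groups, and the log2 ratio of D90 over D15 was 2.80 in Kashmiri and 2.45 in Jersey cows. EIF1B, a close relative that encodes a nearly identical protein, was at 17.2, 33.7 and 25.6 FPKM in Kashmiri cows and at 23.8, 50.8 and 65.6 FPKM in Jersey cows. EIF1B was also lowest at D15 in both breeds, and its level exceeded that of EIF1 in all 6 groups. EIF5, which triggers GTP hydrolysis by eIF2 at the start codon, stayed between 41.6 and 45.3 FPKM in Kashmiri cows and was at 30.6, 70.1 and 82.4 FPKM in Jersey cows. EIF1AX was the most abundant gene of this set, at 116 to 191 FPKM in Kashmiri and 150.2 to 212 FPKM in Jersey cows. EIF5B, the subunit joining factor, was at 20.6 FPKM in Kashmiri cows at D15 and at 9.75 to 12.9 FPKM elsewhere. EIF1AD, a nuclear protein with an eIF1A-like fold, went the other way from EIF1, at 20.1, 13.0 and 9.35 FPKM in Kashmiri cows and at 26.7, 16.2 and 9.94 FPKM in Jersey cows. It was past the limit at D250 over D15 in both breeds, with log2 ratios of -1.03 and -1.34. The Kashmiri value fell short of the limit under all 3 rescalings, at -0.13, -0.78 and -0.98, while the Jersey value lay between -1.55 and -1.41.

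EIF2S1, the alpha subunit of eIF2 that carries the regulatory phosphorylation site, ranged from 12.4 to 24.6 FPKM over the 6 groups, and EIF2S2, the beta subunit, from 46.6 to 74.4 FPKM. None of EIF2S1, EIF2S2, EIF2A and EIF2D, the last of which are alternative carriers of initiator tRNA, passed the limit in any of the 9 comparisons on the deposited scale. After scaling by the summed FPKM, EIF2S1 passed it in Kashmiri cows at D90 over D15 (1.04) and D250 over D15 (1.42), EIF2A at D250 over D15 in Kashmiri cows (1.14), and EIF2D between breeds at D250 (-1.30). The 5 subunits of eIF2B, the factor that reloads eIF2 with GTP, were at 2.72 to 48.3 FPKM, with EIF2B1 lowest and EIF2B5, the catalytic subunit, highest in each group. EIF2B2 was at 36.5, 13.7 and 18.1 FPKM in Kashmiri cows and at 30.1, 11.8 and 11.9 FPKM in Jersey cows. Both D15 values were above all 4 later values. EIF2B2 was the only factor gene lower past the limit at D90 than at D15 in both breeds, with log2 ratios of -1.35 and -1.29. Of all genes, 9.21% met this pattern. EIF2B5 was at 48.3, 26.8 and 21.9 FPKM in Kashmiri cows and at 39.1, 25.7 and 28.7 FPKM in Jersey cows. EIF2B3 was at 5.27 to 14.4 FPKM and EIF2B4 at 16.0 to 27.9 FPKM, each highest in Kashmiri cows at D15. As a share of the summed FPKM, both were highest in Kashmiri cows at D250.

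All 4 kinases of eIF2, each switched on by a different stress, were higher at D250 than at D15 in both breeds on the deposited scale. They parted between breeds and from D90 to D250. Rescaled to the sum, EIF2AK4 turned in Jersey cows at D250 over D15 (-0.04). EIF2AK2, the kinase activated by viral RNA, was at 2.40, 2.56 and 4.10 FPKM in Kashmiri cows and at 9.44, 12.1 and 15.9 FPKM in Jersey cows, in a table entry that it shares with the neighbouring name SULT6B1. The breeds did not overlap, and EIF2AK2 was the only factor gene higher past the limit in Jersey cows on all 3 days, a pattern met by 7.24% of all genes. EIF2AK1, the heme-regulated kinase, was at 9.70, 33.2 and 13.1 FPKM in Kashmiri cows and at 6.61, 11.7 and 10.2 FPKM in Jersey cows, with its peak at D90 in Kashmiri cows. EIF2AK3, the kinase of endoplasmic reticulum stress, was at 16.9 FPKM in Jersey cows at D250 and lower in the other 5 groups, down to 7.32 FPKM. EIF2AK4, which senses amino acid shortage, was at 3.16, 2.93 and 4.30 FPKM in Kashmiri cows and at 1.64, 1.67 and 1.84 FPKM in Jersey cows. Its breed ratio did not reach the limit on any day on the deposited scale, but the D250 log2 ratio of -0.90 became -1.51 after rescaling to the sum and -1.26 with the upper quartile.

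Subunits of eIF3, the scaffold on the small ribosomal subunit, spanned a wide range within each group. EIF3K was highest in all 6 groups, at 606, 534 and 301 FPKM in Kashmiri cows and at 433, 232 and 259 FPKM in Jersey cows. The highest subunit was 28.3, 29.3 and 14.6 times the lowest in Kashmiri cows and 28.1, 12.6 and 8.93 times in Jersey cows. EIF3E, EIF3H, EIF3L and EIF3M were each highest in Kashmiri cows at D90 on the deposited scale. EIF3E was at 228, 393 and 183 FPKM in Kashmiri cows and at 108, 102 and 114 FPKM in Jersey cows. EIF3H was at 194, 241 and 153 FPKM in Kashmiri cows and at 81.2, 75.8 and 110.5 FPKM in Jersey cows. EIF3M was at 81.5, 180.0 and 91.4 FPKM in Kashmiri cows and at 52.6, 79.8 and 71.9 FPKM in Jersey cows. For EIF3E, EIF3H, EIF3I and EIF3M every Kashmiri value was above every Jersey value on the deposited scale. How many of all genes did so was not counted. EIF3A, EIF3D, EIF3G, EIF3I and EIF3K instead were highest at D15 in Kashmiri cows on the deposited scale. As a share of the summed FPKM, only EIF3G of these stayed highest there. EIF3A and EIF3I were then highest in Kashmiri cows at D250, EIF3D in Jersey cows at D15 and EIF3K in Kashmiri cows at D90. EIF3L too was then highest in Kashmiri cows at D250, while EIF3E, EIF3H and EIF3M kept their D90 peak. EIF3D was at 289, 182 and 105 FPKM in Kashmiri cows and at 262, 145 and 155 FPKM in Jersey cows. EIF3G ranged from 174 to 378 FPKM and EIF3I from 83.9 to 161 FPKM. EIF3A, EIF3B, EIF3J and EIF3L were lower, at 15.4 to 66.3 FPKM over all groups. At D90, EIF3E, EIF3H, EIF3K and EIF3M were lower past the limit in Jersey cows, with log2 ratios of -1.93, -1.66, -1.20 and -1.16, and at D250 none of the 11 subunits passed the limit between breeds on the deposited scale. With levels rescaled to the sum, all 11 were below 0 at D250 and 5 passed the limit. The lowest were EIF3E (-1.45), EIF3H (-1.25), EIF3I (-1.24) and EIF3M (-1.12). All genes moved the same way there, with a median of -0.75 and 37.7% lower past the limit. At D90 on that scale 2 of the 11 passed the limit, where 11.9% of all genes were lower past it.

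Of the 11 eIF4 genes with enough signal, which act at the mRNA cap, 9 in Jersey and 7 in Kashmiri cows were higher on D250 than on D15. Their median log2 ratios were 0.89 and 0.13, against 0.07 and -0.04 over all genes. Rescaled to the sum, 8 in Jersey and 10 in Kashmiri cows were higher, with medians of 0.66 and 1.07 against -0.13 and 0.77 over all genes. EIF4E, the cap-binding subunit, was at 8.92, 23.6 and 27.5 FPKM in Kashmiri cows and at 9.73, 35.2 and 55.0 FPKM in Jersey cows. The D15 groups of both breeds were below all 4 later groups, and the log2 ratio of D250 over D15 was 1.52 in Kashmiri and 2.38 in Jersey cows. EIF1 and EIF4E were the only factor genes higher past the limit than at D15 on both later days in both breeds, joined by EIF1B after rescaling to the sum. Of all genes, 4.33% were higher past the limit in both breeds at D90 and 5.23% at D250. EIF4G2, a scaffold that lacks the eIF4E-binding part, was at 116, 120.5 and 176 FPKM in Kashmiri cows and at 83.4, 258 and 479 FPKM in Jersey cows. EIF4G1, the main scaffold, stayed between 27.4 and 41.8 FPKM, a ratio of 1.52, the smallest of the 52 factor genes on the deposited scale. The ratio of EIF4G2 to EIF4G1 was 2.80, 4.40 and 6.38 in Kashmiri cows and 2.00, 8.24 and 13.5 in Jersey cows, larger at each later day in both. EIF4G3, another scaffold, was at 3.49, 4.63 and 6.27 FPKM in Kashmiri cows and at 6.01, 11.3 and 24.9 FPKM in Jersey cows. EIF4E3, an atypical cap-binding protein, was at 1.91, 4.42 and 4.78 FPKM in Kashmiri cows and at 4.74, 7.01 and 27.4 FPKM in Jersey cows. EIF4E2, a cap-binding relative linked to repression, went from 33.1 to 21.0 FPKM between D15 and D250 in Kashmiri cows and from 22.1 to 15.1 FPKM in Jersey cows, so that the ratio of EIF4E to EIF4E2 went from 0.269 to 1.31 and from 0.440 to 3.63. Rescaled to the sum, EIF4E2 turned its direction between these days in Kashmiri cows.

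The helicase genes EIF4A1 and EIF4A2 differed between breeds in opposite directions at D15. EIF4A1 was at 164, 319 and 206 FPKM in Kashmiri cows and at 315, 479 and 497 FPKM in Jersey cows. EIF4A2 was at 237, 172 and 144 FPKM in Kashmiri cows and at 70.7, 96.2 and 186 FPKM in Jersey cows. There was less EIF4A1 than EIF4A2 in Kashmiri cows at D15, with a ratio of 0.690, and more in all other groups, where the ratio ran from 1.43 to 4.98. EIF4B, a helper of the helicase, was at 399, 266 and 203 FPKM in Kashmiri cows and at 167, 117 and 185 FPKM in Jersey cows. EIF4H, another helper, stayed within 88.2 to 164 FPKM, and EIF4A3, which works in the exon junction complex, within 41.3 to 73.7 FPKM.

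Both genes for the proteins that hold eIF4E in check had a low point at D90. EIF4EBP1 was at 289, 87.6 and 239 FPKM in Kashmiri cows and at 186, 108 and 179 FPKM in Jersey cows. EIF4EBP2 was at 93.2, 31.3 and 101 FPKM in Kashmiri cows and at 23.9, 12.3 and 49.4 FPKM in Jersey cows. At D250 over D90 the log2 ratio of EIF4EBP2 was 1.66 in Kashmiri and 1.92 in Jersey cows. It was the only factor gene higher past the limit in both breeds between those days, a pattern met by 3.63% of all genes. TPT1 passed the limit in opposite directions, at -1.96 in Kashmiri and 1.46 in Jersey cows. EIF4EBP2 was also lower past the limit in Jersey cows on all 3 days on the deposited scale, with log2 ratios of -1.92, -1.27 and -1.01, a pattern shared there only with TPT1 among the factors and met by 3.14% of all genes. The pattern was met, after rescaling to the sum, by EEF1B2 and TPT1, with EIF4EBP2 at -0.95 on D90. Under the upper quartile it was met by these 3 genes and by EEF1G and EIF3E, and after centring by TPT1 alone. Against EIF4E, the level of EIF4EBP1 was 32.4, 3.71 and 8.70 times in Kashmiri cows and 19.2, 3.06 and 3.26 times in Jersey cows, highest at D15 in both. EIF4ENIF1, which carries eIF4E into the nucleus, stayed between 3.49 and 6.21 FPKM. PABPC1, which joins the poly(A) tail to the cap complex, was at 624, 512 and 686 FPKM in Kashmiri cows and at 212, 297 and 609 FPKM in Jersey cows, with the breeds nearest each other at D250 on the deposited scale.

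**Figure D3:**
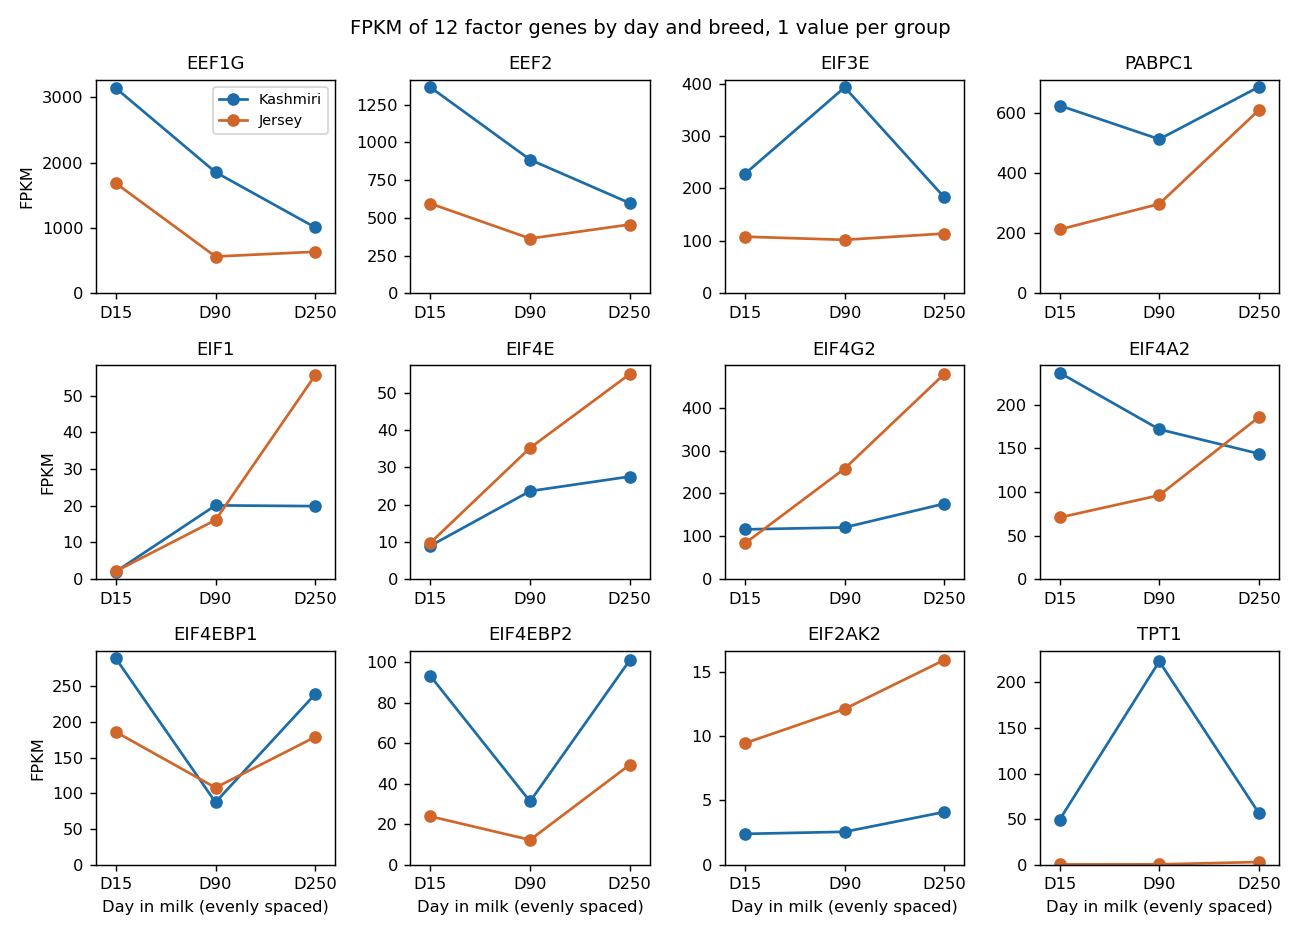
FPKM of 12 factor genes at D15, D90 and D250 (days evenly spaced, each panel with its own axis from 0), with 1 value per point, in Kashmiri and Jersey cows. EEF1G and EEF2 start highest at D15 in both breeds, EIF1 and EIF4E are lowest there, EIF4EBP1 and EIF4EBP2 dip at D90, and TPT1 is near 0 in Jersey cows.

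Between D15 and D90 in Kashmiri cows, 6 factor genes were higher and 6 lower past the limit of the 52 with enough signal, 23.1% against 33.5% of all genes (14.7% higher and 18.8% lower). The largest positive log2 ratios belonged to EIF1 (2.80), EEF1A2 (2.40) and TPT1 (2.16), and the lowest to EEF2K (-2.06), EIF4EBP1 (-1.71) and EEF1AKMT1 (-1.66). The median log2 ratio of the factors was -0.25, against -0.01 over all genes. Rescaled to the sum, 11 were higher and 5 lower, 30.8% against 34.2% of all genes (20.8% higher and 13.4% lower).

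From D90 to D250 in Kashmiri cows, 3 were higher and 3 lower, 11.5% against 17.7% of all genes (8.95% higher and 8.77% lower). EIF4EBP2 (1.66), EIF4EBP1 (1.44) and EEF2K (1.25), the genes lowest at D90, were higher at D250. TPT1 (-1.96), EIF2AK1 (-1.28) and EIF3E (-1.10), which had their peak at D90, were lower. The factors had a median of -0.01 and all genes one of 0.03. After rescaling to the sum 8 factor genes were higher and 1 lower, 17.0% against 28.1% of all genes (25.3% higher and 2.78% lower).

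Over the whole of lactation in Kashmiri cows, D250 over D15, 3 factor genes were higher and 8 lower, 21.2% against 25.7% of all genes (11.2% higher and 14.5% lower). The 3 higher genes were EIF1 (2.78), EEF1A2 (2.21) and EIF4E (1.52). The lower genes were EEF1G, EEF1B2, EEF1AKMT1 (-1.45), EIF3D (-1.45), EEF2, EIF2B5 (-1.11), EIF1AD and EIF3K (-1.01), so 4 of the 8 act in elongation or on its factors. This split rested on the scale, since 23 were higher and none lower once rescaled to the sum. All genes moved alike there, with 37.9% higher and 2.87% lower, against 43.4% and 0% of the factors. Under the upper quartile 4 were higher and 4 lower, against 16.8% higher and 9.39% lower of all genes. The median was -0.26, against -0.04 over all genes.

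In Jersey cows the D90 over D15 comparison had 5 factor genes higher and 2 lower of 51, 13.7% against 29.8% of all genes (12.8% higher and 16.9% lower). EIF1 (2.45), EIF4E (1.76), EIF4G2 (1.62), EIF5 (1.17) and EIF1B (1.07), all initiation factors, were higher, and EEF1G (-1.58) and EIF2B2 (-1.29) were lower. From D90 to D250 all 6 genes past the limit of 52 were higher, 11.5% against 20.9% of all genes (16.6% higher and 4.22% lower). These were EIF4EBP2 (1.92), EIF4E3 (1.83), EIF1 (1.73), TPT1 (1.46), EIF4G3 (1.08) and PABPC1 (1.03). After rescaling to the sum 4 were higher and 2 lower, 11.5% against 20.8% of all genes (9.36% higher and 11.4% lower). Median log2 ratios of the factors were 0.01 and 0.20, against -0.07 and 0.15 over all genes.

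The largest count of any comparison on the deposited scale was found at D250 over D15 in Jersey cows, where 12 factor genes were higher and 3 lower, 28.8% against 42.4% of all genes (24.5% higher and 17.9% lower). EIF1 had a log2 ratio of 4.18, followed by EIF4G2 (2.51), EIF4E (2.38), EIF4E3 (2.31) and EIF4G3 (1.88). Here 13 genes passed the limit after rescaling to the sum, against 23 for Kashmiri D250 over D15 and 24 for Jersey over Kashmiri at D250. Of all genes, 43.1%, 40.8% and 51.4% did so in these comparisons. Of the 11 eIF4 genes with enough signal 5 were higher past the limit and none lower, with a median of 0.89 against 0.07 over all genes, while none of the 11 eIF3 subunits passed the limit. The other genes past the limit were EIF1B (1.43), EIF5 (1.40), PABPC1 (1.52), TPT1 (1.54), EIF4A2 (1.38), EIF2AK3 (1.10) and EIF4EBP2 (1.02) on the higher side and EEF1G (-1.40), EIF1AD (-1.34) and EIF2B2 (-1.27) on the lower side. On the deposited scale the share of factor genes past the limit was below that of all genes in all 6 stage comparisons. Comparisons that share a group share its values, so their counts are not independent.

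Between breeds, on the deposited scale, more factor genes were lower than higher past the limit in Jersey cows at D15 and D90, and more were higher than lower at D250. At D15, 2 were higher and 11 lower in Jersey cows, 25.0% against 28.9% of all genes (15.9% higher and 13.0% lower). At D90, 3 were higher and 11 lower, 26.9% against 32.9% of all genes (17.0% higher and 15.9% lower). At D250, 7 were higher and 2 lower, 17.3% against 34.5% of all genes (22.8% higher and 11.7% lower). Median log2 ratios of the factors were -0.48, -0.23 and -0.14 by day, against -0.13, -0.03 and -0.10 over all genes. Rescaled to the sum, 4 were higher and 6 lower at D15, 3 higher and 6 lower at D90, and 3 higher and 21 lower at D250, with medians of -0.07, 0.05 and -0.87 against 0.24, 0.27 and -0.75 over all genes. Over all genes on that scale 21.4% were higher and 6.73% lower at D15, 22.8% and 11.9% at D90, and 13.7% and 37.7% at D250. The excess of higher genes at D250 was thus turned on that scale, for the factors and for all genes alike. With the upper quartile, 3 factor genes were higher and 12 lower at D250, against 16.5% higher and 26.7% lower of all genes.

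Few factor genes differed by 4-fold, a log2 ratio of 2. In Kashmiri cows these were EIF1, EEF1A2, TPT1 and EEF2K at D90 over D15, none at D250 over D90, and EIF1 and EEF1A2 at D250 over D15, where 7.50%, 1.98% and 4.05% of all genes did so. In Jersey cows the same comparisons gave EIF1 alone, none, and EIF1, EIF4G2, EIF4E and EIF4E3, where 6.76%, 4.18% and 12.6% of all genes did so. Between breeds TPT1 differed that much on each day and EIF4E3 at D250, against 8.57%, 11.7% and 12.3% of all genes.

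On the deposited scale, at D15 the lower genes were EEF1B2 (-1.63), EEF2 (-1.20), EEF1AKMT1 (-1.59), EEF2K (-1.19), EIF3E (-1.08), EIF3H (-1.24), EIF4A2 (-1.73), EIF4B (-1.25), EIF4EBP2, PABPC1 (-1.56) and TPT1, and the higher ones EIF2AK2 (1.62) and EEF1A2 (1.33). At D90 EEF1G (-1.72), EEF1B2 (-1.70), EEF2 (-1.28), EIF2AK1 (-1.43), EIF4B (-1.17), EIF4EBP2, TPT1 and the 4 eIF3 subunits named above were lower, and EIF2AK2 (1.88), EIF4G3 (1.12) and EIF4G2 (1.09) were higher. At D250 EIF4E3 (2.30), EIF4G3 (1.83), EIF2AK2 (1.73), EIF1 (1.44), EIF4G2 (1.44), EIF1B (1.33) and EIF4A1 (1.27) were higher, and only EIF4EBP2 and TPT1 were lower. EIF1, EIF1B, EIF4G2 and EIF4A1 at D250 fell short of the limit after rescaling to the sum or the upper quartile, with log2 ratios of 0.49 to 0.95. Of the 11 eIF4 genes with enough signal, 9 were above 0 at D250, with a median of 0.69 against -0.10 over all genes. Rescaled to the sum, 5 were above 0 and 6 below, with a median of -0.08 against -0.75 over all genes. Differences of any size ran lower in Jersey cows on all 3 days for 25 of the 52 genes, against 34.2% of all genes, and higher on all 3 days for 10, against 26.0% of all genes. Rescaled to the sum, these counts were 21 and 7.

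**Figure D4:**
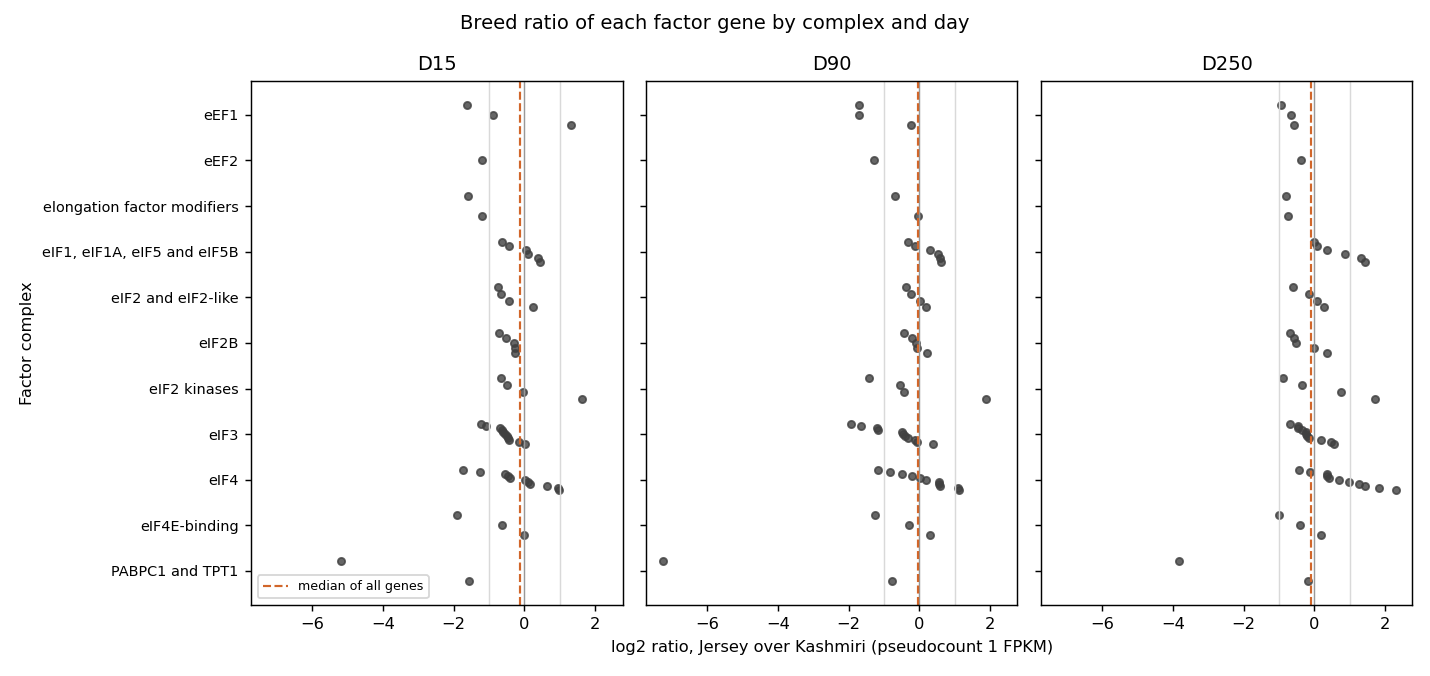
Log2 ratio of Jersey over Kashmiri (1 FPKM added) for each of the 52 factor genes, 1 dot per gene, by complex and day, with the median of all genes dashed and the 2-fold limits in grey. On the deposited scale shown, the eEF1, eEF2 and eIF3 dots lie mostly left of 0 at D15 and D90. The eIF4 dots spread to the right at D250, and the far left dot is TPT1.

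Many mRNAs for elongation factors and ribosomal proteins begin with a terminal oligopyrimidine (TOP) tract, which places their translation under mTOR. Of 11 factor genes listed as TOP mRNAs 8 were found, namely EEF1B2, EEF1G, EEF2, EIF3E, EIF3H, EIF4B, PABPC1 and TPT1. In Jersey against Kashmiri cows 7 of these 8 were lower past the limit at D15, 7 at D90 and 1 at D250, where 13.0%, 15.9% and 11.7% of all genes were lower, and all 8 had log2 ratios below 0 on each day. On the scale of the sum, 3, 5 and 6 of the 8 were lower past the limit by day, with medians of -0.84, -1.33 and -1.30, so the small count at D250 was not kept on that scale. Of all genes, 6.73%, 11.9% and 37.7% were lower past the limit there, with medians of 0.24, 0.27 and -0.75. On the deposited scale the median log2 ratios of the TOP genes were -1.25, -1.68 and -0.52, against -0.43, -0.12 and 0.08 for the other 44 factor genes. Ribosomal protein genes had medians of -1.08, -1.99 and -0.74, with 28 of 42 lower past the limit at D15, 41 of 43 at D90 and 3 of 42 at D250. After rescaling to the sum 3, 39 and 38 of them were lower past the limit, with medians of -0.67, -1.66 and -1.52. These counts stand beside the same 6.73%, 11.9% and 37.7% of all genes. Both lists had their lowest median breed ratio at D90 on either scale, but D90 and D250 lay close together after rescaling.

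Other genes that act with these factors were taken from a list of 26, of which 23 were found. Between breeds 4 were higher and 3 lower past the limit at D15, 6 and 5 at D90, and 7 and 2 at D250, with medians of -0.24, -0.24 and -0.31. Over all genes 15.9% were higher and 13.0% lower at D15, 17.0% and 15.9% at D90, and 22.8% and 11.7% at D250. On the scale of the sum, 7 of the 23 were higher and 11 lower at D250, against 13.7% higher and 37.7% lower of all genes. MKNK1, a kinase that phosphorylates eIF4E, was at 13.8, 28.8 and 20.0 FPKM in Kashmiri cows and at 89.8, 251 and 448 FPKM in Jersey cows, while its relative MKNK2 stayed between 19.0 and 32.0 FPKM. PPP1R15A, the phosphatase subunit that reverses eIF2 phosphorylation, was at 54.1, 82.1 and 43.3 FPKM in Kashmiri cows and at 189, 412 and 914 FPKM in Jersey cows. ATF4, the transcription factor translated when eIF2 is phosphorylated, was at 599, 543 and 453 FPKM in Kashmiri cows and at 670.3, 1147 and 1679 FPKM in Jersey cows. DDIT3, a target of ATF4, was at 26.9 to 50.8 FPKM in Kashmiri and 117 to 226 FPKM in Jersey cows, but ASNS, another target, was at 26.0 to 37.1 FPKM in Kashmiri and 10.7 to 21.7 FPKM in Jersey cows. For MKNK1, PPP1R15A, ATF4 and DDIT3 all Jersey values were above all Kashmiri values, and for ASNS all were below. ETF1, the termination factor that reads stop codons, was at 22.8 to 59.8 FPKM in 5 groups and at 144 FPKM in Jersey cows at D250. MTOR itself stayed between 4.21 and 6.57 FPKM, and none of its partners RPTOR and MLST8 and its targets RPS6KB1 and RPS6KB2 exceeded 19.3 FPKM.

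Markers of other cells moved with both breed and day. Epithelial markers were present in every group, with 13 of 14 found and none at 0, and their summed level was 7825, 1043 and 4222 FPKM in Kashmiri cows and 3273, 306 and 2383 FPKM in Jersey cows. KRT18, the capture antigen, was at 51.3, 9.13 and 11.5 FPKM in Kashmiri cows and at 33.7, 1.59 and 4.51 FPKM in Jersey cows, lowest at D90 in both. Neutrophil markers, 9 of 12 found, summed to 203, 526 and 652 FPKM in Kashmiri cows and to 5156, 6081 and 14608 FPKM in Jersey cows, so they exceeded the epithelial sum in all 3 Jersey groups and in no Kashmiri group. All 10 macrophage markers were found and summed to 97.0 to 474 FPKM in Kashmiri and 1041 to 2738 FPKM in Jersey cows. These markers did not all move alike. At D250, 6 of the 9 with enough signal were higher in Jersey cows, while C1QA, C1QB and C1QC were lower. In Jersey cows the median marker level was 83.4, 58.1 and 34.9 FPKM by day, while the sum was 1041, 2276 and 2738 FPKM. The 10 T and NK cell markers summed to 1789 FPKM in Kashmiri cows at D90 and to 109 to 475 FPKM elsewhere, and the 6 B cell markers to 68.9 FPKM in that group and to 7.11 to 28.2 FPKM elsewhere. Red blood cell markers, 3 of 6 found, summed to less than 1 FPKM in every group, with HBB at 0 in 3 of them. The breed differences given above for EIF2AK2, EIF4G2, EIF4E3, MKNK1 and TPT1 run beside these marker levels. So do the lower levels of EEF1G, EEF1B2, EEF2, the TOP genes and the ribosomal protein genes in Jersey cows. The same holds for the eIF4 levels at D250, higher in Jersey cows on the deposited scale. It also holds for the D90 peak of EIF3E, EIF3M, EIF2AK1 and TPT1 in Kashmiri cows, and the D90 low of EIF4EBP1 and EIF4EBP2. The part of the marked cell types in these results was not tested. In such bulk RNA, fewer cells of a type and less RNA per cell cannot be told apart.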

How the data were processed

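RNA from milk epithelial cells was sequenced by the authors from poly(A)-selected stranded libraries, aligned to the bovine build UMD3.1 with Bowtie2 and TopHat, and summarised with Cufflinks and Cuffdiff after reads with several matches had been discarded. The deposited table gives FPKM values, 1 per gene and group, for 61264 entries, of which 25121 carry a gene name. The columns name a stage and either Jersey or Local, and Local was read as Kashmiri, the only other breed. Where a name was repeated, the entry with the highest mean over the 6 groups was kept, which concerned EIF2AK4 among the factors. Counts of genes used a limit of 1 FPKM in either group, a pseudocount of 1 FPKM and an absolute log2 ratio of 1, over all named genes (Python 3.11.15, pandas 2.3.3, numpy 2.4.6), and the script was tested on simulated data. Alternatives were 3 rescalings, a pseudocount of 0.1 FPKM, limits of 0.01 and 10 FPKM, and an absolute log2 ratio of 2. Every factor gene could be named in the text, with the 3 highest and 3 lowest ratios of each comparison. Genes and lists were chosen with earlier results of these data known. Depth per sample is unknown here and no interval was computed.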

Additional observations from a re-analysis of the deposited data

How the results depend on the processing

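No paired analysis was possible because the table holds 1 value per group, and leaving out a sample was not possible for the same reason. With an absolute log2 ratio of 2, the number of factor genes past the limit was 4, 0 and 2 for Kashmiri D90 over D15, D250 over D90 and D250 over D15, 1, 0 and 4 for the same Jersey comparisons, and 1, 1 and 2 for Jersey over Kashmiri at D15, D90 and D250. After rescaling to the summed FPKM without milk protein genes it was 23 for Kashmiri D250 over D15, 9 for Jersey over Kashmiri at D90 and 24 at D250. After rescaling to the upper quartile it was 15 for Jersey over Kashmiri at D250. Of all genes, 40.8%, 34.7%, 51.4% and 43.1% passed the limit in these cases. The median of the factors relative to that of all genes turned with a limit of 10 FPKM for Kashmiri D250 over D15 (0.06 in place of -0.21) and Jersey D250 over D90 (-0.0014 in place of 0.05). It also turned for Jersey D90 over D15 without TPT1, EIF1 and EEF1A2 (-0.01 in place of 0.08), an alternative chosen after seeing the data, as was adding the entry eef1d. The cause was not tested, apart from fewer genes entering at the higher limit. All other totals of genes past the limit, higher plus lower, stayed within 1.5 times, and all other medians relative to all genes and the shares of summed FPKM kept their direction. The factor medians themselves turned after rescaling to the sum for Kashmiri D90 over D15 (0.05), D250 over D90 (0.59) and D250 over D15 (0.69), Jersey D250 over D90 (-0.25) and Jersey over Kashmiri at D90 (0.05), and the splits into higher and lower genes moved as given above. Without samples, no difference could be set against the spread between cows.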
